A study of Danio rerio with 6 samples.

Results

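The 4 genes hnf1ba, hnf1bb, cdh17 and wt1a mark the zebrafish pronephros, the first kidney of the embryo, and were followed through 6 samples of sorted pax8:DsRed-positive cells. They are 4 of the 32266 Ensembl genes in the deposited table and were selected on their known expression in nephric tissue, with their counts in these 6 samples already known. Their levels and the differences between samples are therefore given as a description, without a test. The chromosomes of the zebrafish symbols in RefSeq told hnf1ba (ENSDARG00000006615, chromosome 15) from hnf1bb (ENSDARG00000022295, chromosome 21).

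All embryos were zebrafish heterozygous for the pax8:DsRed reporter in a wild-type AB background, in which DsRed-positive cells comprise those of the nephric anlagen and of the OEPD (otic-epibranchial progenitor domain, the source of the inner ear). The 3 control samples (1, 2 and 3) came from wild-type embryos, for which the labels name no morpholino. The 3 atoh1b-MO samples (2, 4 and 5) came from embryos injected at the one-cell stage with a morpholino against atoh1b, an antisense oligomer that depletes the protein for a limited time and leaves the gene intact. The genotype label of these samples names a dlx3b/4b knockdown, while their titles and the series text name atoh1b, and the titles were followed. Embryos were dissociated at late OEPD stages, and the DsRed gate pools otic and nephric cells, so each level is an average over both. Total counts were 24120228 to 37169850 per sample, and the floor of 3 counts equalled between 0.0807 and 0.124 CPM (counts normalised to library depth). The study left 1 divergent wild-type sample out of its comparison, and the sources used here do not say which. Control 3 was taken to be that sample because its counts differed most from the other controls (chi-square per degree of freedom 123 and 108 against controls 1 and 2, which differed from each other by 23.8), and results are given with and without it. Mitochondrial genes took 1.84% to 2.10% of counts in controls 1 and 2, 2.82% in control 3 and 2.63% to 3.43% in atoh1b-MO samples.

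In zebrafish the pronephros arises from intermediate mesoderm, a pair of stripes on either side of the midline that turn on transcription factors such as osr1, lhx1a, pax2a and pax8 and later form podocytes, tubules and ducts. The stripes lie beside the progenitors of blood and vessels. The paralogs hnf1ba and hnf1bb encode homeodomain factors that pattern the pronephric tubule into segments. They are also active in other tissues, such as the gut and, for hnf1ba at least, the hindbrain. Cdh17 is a cadherin of the tubule and duct epithelium. The zinc finger factor wt1a marks the progenitors of podocytes, the filtering cells of the glomerulus.

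On the coordinates of the deposited table (GRCz10), hnf1ba lies on chromosome 15 (16061127 to 16076941, minus strand) and has 4167 exonic bases. Its paralog hnf1bb lies on chromosome 21 (38770137 to 38792760, plus strand) with 3605 exonic bases. For cdh17 (ENSDARG00000005112) the position is chromosome 16 (26900740 to 26929356, plus strand), with 3663 exonic bases. For wt1a (ENSDARG00000031420) it is chromosome 25 (15081825 to 15117761, minus strand), with 1874 exonic bases. The span of none of the 4 genes overlapped another annotated gene on either strand (0 genes each), so their counts were not shared with a neighbour.

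The 4 pronephros genes were lowest in control 3. Among the other 5 samples the highest level was 1.41-fold (hnf1bb) to 2.65-fold (wt1a) the lowest. The lowest of these 5 was 3.10-fold (wt1a) to 31.8-fold (hnf1bb) above control 3. Levels are CPM with TMM scaling. The level of hnf1bb was 899 and 809 CPM in controls 1 and 2, 20.05 CPM in control 3, and 637, 889 and 810 CPM in atoh1b-MO 2, 4 and 5. Control 3 thus stood at 2.35% of the mean of controls 1 and 2 (42.6-fold lower) and 31.8-fold below the lowest of the other samples. The 560 counts behind this value gave a 95% Wilson interval of 18.5 to 21.8 CPM.

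The level of hnf1ba was 313 and 275 CPM in controls 1 and 2, 24.3 CPM in control 3, and 209.9, 283 and 279 CPM in atoh1b-MO 2, 4 and 5. In control 3 this was 8.27% of the mean of controls 1 and 2 (679 counts, 95% Wilson interval 22.5 to 26.2 CPM). The controls 1 and 2 and the atoh1b-MO samples overlapped for both hnf1ba and hnf1bb, and atoh1b-MO 2 was the lowest of its group.

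The level of cdh17 was 95.5 and 105.02 CPM in controls 1 and 2, 6.12 CPM in control 3, and 85.6, 126 and 161 CPM in atoh1b-MO 2, 4 and 5. Control 3 was at 6.11% of the other controls (171 counts, 95% Wilson interval 5.27 to 7.11 CPM). The atoh1b-MO samples spread to both sides of controls 1 and 2. The level of wt1a was 33.8 and 31.4 CPM in controls 1 and 2, 5.05 CPM in control 3, and 15.7, 41.5 and 31.9 CPM in atoh1b-MO 2, 4 and 5. Control 3 was at 15.5% of the other controls (141 counts, 95% Wilson interval 4.28 to 5.95 CPM), the smallest drop of the 4 genes. Atoh1b-MO 2 was again the lowest of its group, at 0.426 of the mean of atoh1b-MO 4 and 5, against 0.748 for hnf1ba, 0.750 for hnf1bb and 0.598 for cdh17.

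**Figure D1:**
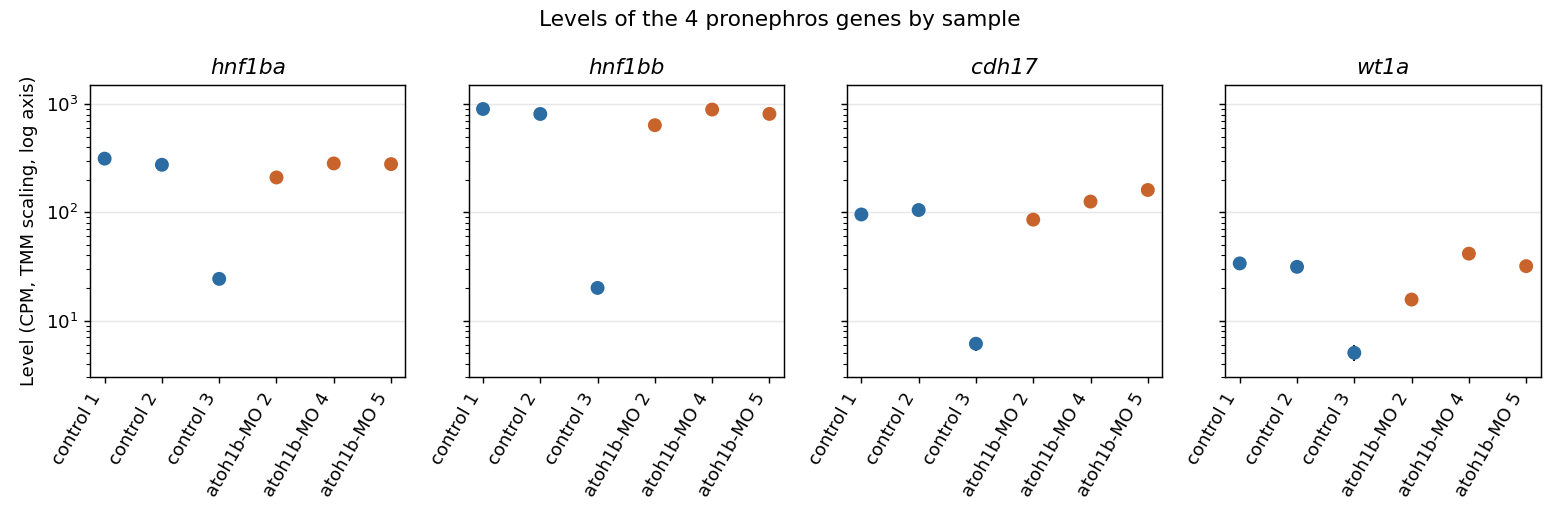
Level of each of the 4 pronephros genes in every sample (CPM with TMM scaling, log axis). Points are single samples, blue for controls and orange for atoh1b-MO, and bars are 95% Wilson intervals of the counts, mostly smaller than the points. Control 3 was the lowest sample for all 4 genes, at 2.35% (hnf1bb) to 15.5% (wt1a) of the mean of controls 1 and 2.

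Summed over the 4 genes, the level was 1342 and 1220 CPM in controls 1 and 2, 55.5 CPM in control 3, and 949, 1339 and 1281 CPM in atoh1b-MO 2, 4 and 5. As these are bulk samples, fewer nephric cells in a sort and less RNA of these genes per cell cannot be told apart. Among the 9090 genes with a mean of at least 10 CPM, 166 (1.83%) were lower in control 3 by 5-fold or more than in each of controls 1 and 2. All 4 pronephros genes were among them, which is a description of genes known to be low there. Ordered by the ratio of control 3 to controls 1 and 2, hnf1bb was the 6th lowest of the 9090 genes, cdh17 the 54th, hnf1ba the 75th and wt1a the 135th.

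Per gene length, in TPM (counts normalised to gene length and depth), the order of the levels was hnf1bb, hnf1ba, cdh17 and wt1a in each of the 5 samples other than control 3. Over these 5 samples hnf1bb was at 375 to 518 TPM, hnf1ba at 107 to 149.5 TPM, cdh17 at 49.6 to 94.8 TPM and wt1a at 17.7 to 46.6 TPM. The ranges of neighbours in this order did not overlap. In control 3 the order differed. There hnf1ba was at 10.7 TPM, hnf1bb at 10.2 TPM, wt1a at 4.95 TPM and cdh17 at 3.07 TPM.

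The balance of hnf1ba and hnf1bb does not depend on scaling between samples, because both are counted in the same library. Of the counts of both genes, hnf1ba took 25.8% in control 1 and 25.4% in control 2. In atoh1b-MO 2, 4 and 5 its share was 24.8%, 24.1% and 25.6%. These 5 shares lay within 2 percentage points of each other. Control 3 stood apart with a share of 54.8% (95% Wilson interval 52.0% to 57.6%). An equal level of both genes per base would give 53.6%, which lies inside that interval. In the other samples hnf1bb was 3.32-fold to 3.63-fold above hnf1ba in TPM. Against 100 counts of hnf1bb there were 10.6 and 13.0 counts of cdh17 in controls 1 and 2, 30.5 in control 3, and 13.4, 14.1 and 19.8 in atoh1b-MO 2, 4 and 5. For wt1a there were 2.46 to 4.67 counts in the 5 samples and 25.2 in control 3. The 4 genes were thus not lowered in equal proportion in control 3, and hnf1bb was lowered most.

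**Figure D2:**
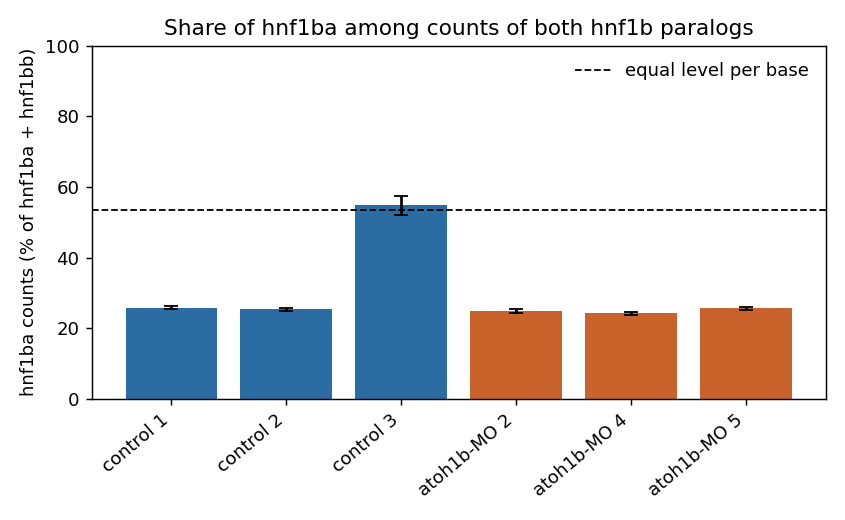
Share of hnf1ba among the counts of hnf1ba and hnf1bb together (%), per sample. Bars are single samples (blue controls, orange atoh1b-MO) with 95% Wilson intervals, and the dashed line is the share that an equal level per base would give (53.6%). The share was 54.8% in control 3 and between 24.1% and 25.8% elsewhere.

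Whether depletion of Atoh1b went with a change of these genes was examined first with controls 1 and 2 against the 3 atoh1b-MO samples. Hnf1ba averaged 294 ± 27.0 CPM (SD, n = 2) in these controls, against 257 ± 41.0 CPM (SD, n = 3) after depletion. The fitted log2 fold change (edgeR) was -0.19 (standard error 0.14). Hnf1bb averaged 854 ± 63.8 CPM (SD, n = 2) against 779 ± 129 CPM (SD, n = 3), a log2 fold change of -0.13 (standard error 0.13). Both differences between means were smaller than the SD of the atoh1b-MO group and larger than that of controls 1 and 2.

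Cdh17 averaged 100.3 ± 6.70 CPM (SD, n = 2) in controls 1 and 2, against 124 ± 37.6 CPM (SD, n = 3) after depletion, a log2 fold change of 0.31 (standard error 0.22). Wt1a averaged 32.6 ± 1.68 CPM (SD, n = 2) against 29.7 ± 13.1 CPM (SD, n = 3), a log2 fold change of -0.13 (standard error 0.34). These differences, too, were smaller than the SD of the atoh1b-MO group and larger than that of controls 1 and 2. Without atoh1b-MO 2 the log2 fold change of wt1a was 0.18 instead (standard error 0.15), so that sample set its direction. For cdh17 it was then 0.52 (standard error 0.13), the highest value with 1 replicate left out. The lowest was 0.076 (standard error 0.18), without atoh1b-MO 5. Of the 4 genes 0 were among the genes called at an adjusted p below 0.1, where 110 of 18397 genes tested (0.598%) were called. This number is a description only, given how the genes were selected.

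With all 6 samples the log2 fold changes were 0.33 for hnf1ba, 0.43 for hnf1bb, 0.85 for cdh17 and 0.34 for wt1a, and their standard errors of 0.68 to 1.04 were of the same size or larger. The direction of hnf1ba, hnf1bb and wt1a thus turned when control 3 was kept. The control mean of hnf1bb became 576 ± 484 CPM (SD, n = 3). In this comparison 0 of 17874 genes were called (0%) by edgeR, with 1040 genes (5.82%) at an unadjusted p below 0.05. DESeq2 called 112 of the 19361 genes to which it gave an adjusted p (0.578%) and limma voom 21 (0.117%).

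The other genes of the nephros were taken from lists of transcription factors, tubule and duct epithelium, podocytes and cilia, which hold 38 matched genes besides the 4. None was called by edgeR with controls 1 and 2 (0 of 34 tested in either direction, against 0.451% of all genes called higher and 0.147% called lower in atoh1b-MO samples). An unadjusted p below 0.05 was found for 12 of the 34, and for 2054 of all genes tested (11.2%). DESeq2 called 4 of them (atp1a1a.4, slc4a2a and podxl higher and tbx2b lower in atoh1b-MO samples), and limma voom called 0. Over all genes DESeq2 called 690 of the 18204 to which it gave an adjusted p (3.79%), and limma voom 84 of 18397 (0.457%). With 6 samples, 0 of 33 were called by edgeR and 3 had an unadjusted p below 0.05, while DESeq2 called 1 (atp1a1a.4) and limma voom 0. Listed genes named below beyond those selected by level or call were picked after their values were seen.

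Among the nephric transcription factors, 13 besides hnf1ba, hnf1bb and wt1a were tested, and their median log2 fold change with controls 1 and 2 was -0.25, against 0.0068 over all genes tested. Pax2a was the most abundant of them, at 569 and 565 CPM in controls 1 and 2, 74.2 CPM in control 3 and 404 to 566 CPM in atoh1b-MO samples. Pax8, the gene whose regulation drives the reporter, was at 295 and 226 CPM in controls 1 and 2, 16.5 CPM in control 3, and 109, 201 and 173 CPM in atoh1b-MO 2, 4 and 5. With controls 1 and 2 its log2 fold change was -0.69 (edgeR, standard error 0.23, adjusted p = 0.327). Both factors also belong to the otic domain.

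Lhx1a, a LIM homeodomain factor of early nephric mesoderm, was at 186 and 145 CPM in controls 1 and 2, 8.45 CPM in control 3, and 99.7, 175 and 140.4 CPM in atoh1b-MO 2, 4 and 5. Osr1, a zinc finger factor needed to form intermediate mesoderm, was at 97.1 and 60.2 CPM, 8.95 CPM, and 48.8, 94.2 and 85.2 CPM in the same order. Sim1a, found in the straight segment and the corpuscles of Stannius, was at 52.2 and 50.1 CPM, 2.72 CPM, and 34.9, 46.2 and 41.5 CPM. These 3 genes had the order of the 4 pronephros genes, with control 3 lowest and atoh1b-MO 2 next. That order was found in 1465 of the 9090 genes with a mean of at least 10 CPM (16.1%), and control 3 was the lowest sample in 3144 (34.6%). Of the 10 further factors with a mean of at least 10 CPM, 6 (osr1, pax2a, pax8, lhx1a, mecom and sim1a) were lower by 5-fold or more in control 3 than in each of controls 1 and 2. Over all 9090 genes that share was 1.83%. The lists were chosen with earlier results of these data known, so this contrast is a description only. Of the other listed nephric genes at this level besides cdh17 and wt1a, 0 of 4 tubule and duct genes were so lowered. It was 0 of 3 for podocyte genes and 1 of 4 (foxj1a) for cilia genes.

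Not all factors were lower in control 3 by 5-fold or more. Gata3, which is expressed in the duct and also in the ear and nervous system, had 78.8, 102.2 and 79.7 CPM in controls 1, 2 and 3 and 60.4 to 100.4 CPM in atoh1b-MO samples. Irx3b, a tubule factor that is also neural, was at 3.89 and 4.79 CPM in controls 1 and 2, 38.8 CPM in control 3, and 20.9, 5.24 and 5.34 CPM in atoh1b-MO 2, 4 and 5. Among listed nephric genes with a mean of at least 10 CPM, irx3b alone lay at least 5-fold above both other controls in control 3. The same held for 82 of the 9090 genes (0.902%). The mean of irx3b (13.2 CPM) includes its high value in control 3, so this limit depends on the sample described. Below the limit, lmx1bb of the podocyte list (mean 5.55 CPM) was raised at least 5-fold as well. Control 3 had 14.7 CPM of it, against 2.84 and 2.83 CPM for the other controls. The scarce slc12a1 was also raised at least 5-fold there. Control 3 was the highest and atoh1b-MO 2 the next highest sample for irx3b, as for 992 of the 9090 genes (10.9%).

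**Figure D3:**
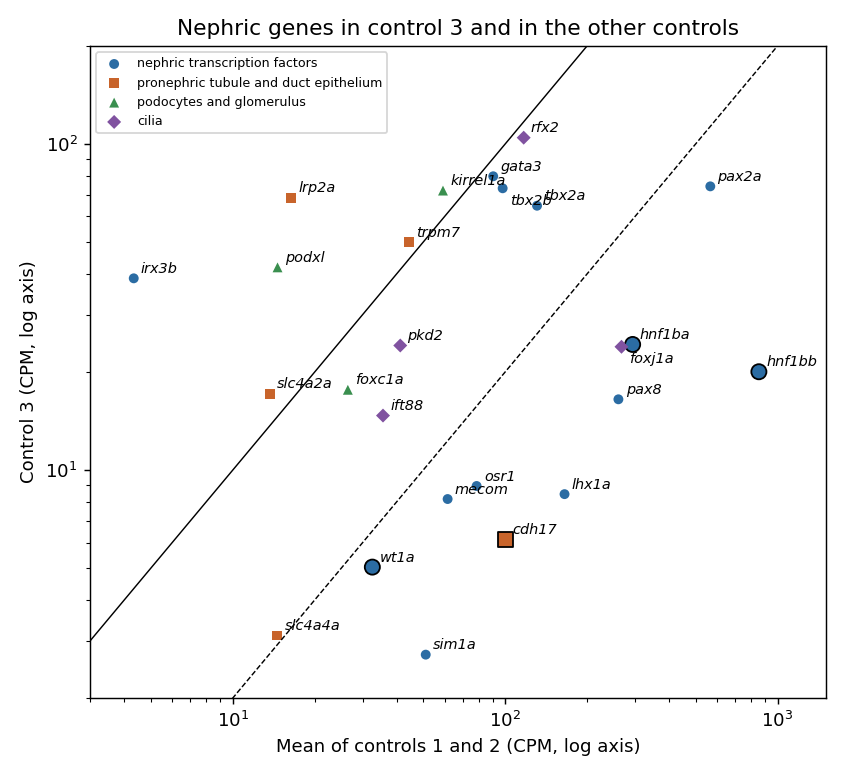
Level of nephric genes in control 3 against the mean of controls 1 and 2 (CPM with TMM scaling, both axes log), for listed genes with a mean of at least 10 CPM over all samples. Points are genes, coloured by list, and the 4 pronephros genes are outlined. The solid line marks equal levels and the dashed line 5-fold lower. Hnf1bb lay farthest below, at 20.05 CPM, and gata3 and rfx2 lay near the line of equal levels.

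Of the tubule and duct list, cdh17 was the most abundant gene in 5 of the 6 samples. In control 3 lrp2a (68.4 CPM), an endocytic receptor that is also neural, was the most abundant, against 14.2 and 18.5 CPM in controls 1 and 2 and 19.9 to 39.3 CPM in atoh1b-MO samples. Carrier genes of the tubule were not all at one level. Slc4a2a was at 10.8 to 27.9 CPM over the samples, and slc4a4a is given below, while others were scarce. Slc12a1 and slc12a3, cotransporters of the distal segments, were at or below 1.13 CPM in every sample, and slc13a1, a sulfate carrier, at or below 0.266 CPM. With controls 1 and 2, 9 of the 11 tested genes of this list other than cdh17 had a positive log2 fold change and 2 a negative one, with a median of 0.85 and 0 called.

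Atp1a1a.4, an alpha subunit of the sodium pump, had 2.16, 4.84 and 3.37 CPM in controls 1, 2 and 3, against 10.9, 7.19 and 16.9 CPM in atoh1b-MO 2, 4 and 5. All atoh1b-MO samples lay above all controls, as they did for slc4a2a and the scarce enpep of the same list. For tbx2b all lay below all controls. The share of all genes so ordered was not counted, so this order is a description only and no conclusion is drawn from it. With controls 1 and 2 the log2 fold change of atp1a1a.4 was 1.73 (edgeR, standard error 0.45, adjusted p = 0.220). With 6 samples it was 1.75 (edgeR, adjusted p = 0.731), and DESeq2 gave adjusted p-values of 0.0060 and 0.0187. Slc4a4a, a sodium bicarbonate cotransporter of the proximal tubule, stood at 13.0 and 16.1 CPM in controls 1 and 2, 3.11 CPM in control 3, and 15.9, 27.6 and 30.9 CPM in atoh1b-MO 2, 4 and 5. Its log2 fold change with controls 1 and 2 was 0.77 (edgeR, adjusted p = 0.360), and 1.01 without atoh1b-MO 2, where it was called (adjusted p = 0.0379), as were 260 of 17910 genes (1.45%). Without that sample slc4a2a, an anion exchanger, was called as well (log2 fold change 0.98, adjusted p = 0.0940). Leaving out atoh1b-MO 4 or 5 instead gave 36 or 67 called genes, and slc4a4a and slc4a2a were not followed in those fits.

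Of the podocyte list, wt1b, the paralog of wt1a, was at 4.79 and 4.73 CPM in controls 1 and 2, 1.00 CPM in control 3, and 2.58, 5.69 and 7.73 CPM in atoh1b-MO 2, 4 and 5. The slit diaphragm gene nphs1 was at or below 1.10 CPM in every sample. Kirrel1a, a further adhesion molecule of the slit, was at 47.6 to 72.0 CPM, with control 3 the highest. Podxl, a sialomucin that is also found outside the glomerulus, was at 12.7 and 16.5 CPM in controls 1 and 2, 41.9 CPM in control 3 and 20.9 to 33.7 CPM in atoh1b-MO samples, a log2 fold change of 0.93 with controls 1 and 2 (edgeR, standard error 0.22, adjusted p = 0.188). The median of the 6 tested genes of this list other than wt1a was 0.39.

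Of the cilia list, foxj1a, a forkhead factor that drives the formation of motile cilia, had levels near those of hnf1ba. It was at 267 and 268 CPM in controls 1 and 2, 23.9 CPM in control 3, and 187, 290 and 278 CPM in atoh1b-MO 2, 4 and 5. Rfx2, a broader ciliary factor, was at 105 to 123 CPM in all samples. The median log2 fold change of the 5 tested cilia genes was -0.21.

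**Figure D4:**
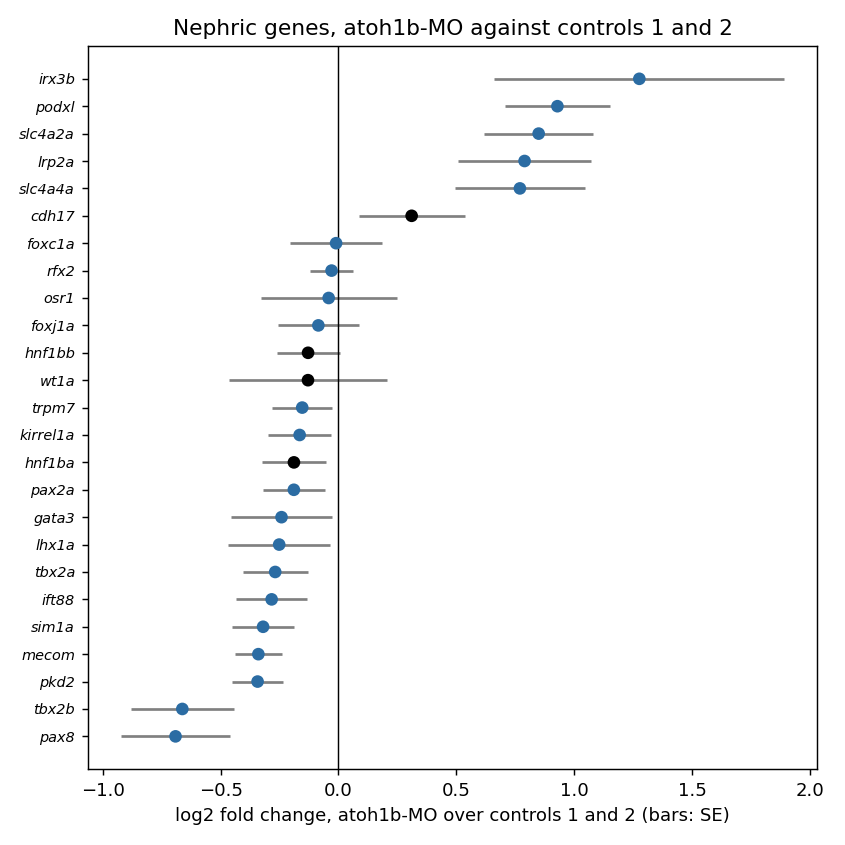
Fitted log2 fold change of atoh1b-MO samples over controls 1 and 2 (edgeR), for the 25 listed nephric genes with a mean of at least 10 CPM. Points are genes, black for the 4 pronephros genes, and bars are standard errors. Hnf1ba (-0.19), hnf1bb (-0.13) and wt1a (-0.13) lay below 0 and cdh17 (0.31) above it, and none of the 25 genes was called.

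Lists of markers of other cells in or near the gate were summed beside the 4 pronephros genes, and their part in the levels of these genes was not tested. Some lists were lower in control 3 and others higher. The 6 matched markers of blood and vessel progenitors, led by the factors lmo2 and tal1, summed to 2963 and 2327 CPM in controls 1 and 2, 109 CPM in control 3, and 1261, 1904 and 2194 CPM in atoh1b-MO 2, 4 and 5. Control 3 was at 4.14% of the other controls for this list, and 5 of the 6 genes were at least 5-fold lower there. The 9 otic markers without pax2a and pax8 summed to 677 and 1098 CPM in controls 1 and 2, 535 CPM in control 3, and 587, 588 and 572 CPM in atoh1b-MO 2, 4 and 5. Controls 1 and 2 were far apart in this sum, so the otic percentage depends on the control taken. Besides pax2a and pax8, an otic marker was also at least 5-fold lower in control 3 than in both. Control 3 was at 60.3% of the mean of controls 1 and 2 for these otic markers. For the 11 nephric transcription factors that remained without the 4 pronephros genes, pax2a and pax8 it was at 44.6%. With pax2a and pax8, which both lists hold, the values were 36.5% for otic and 26.3% for nephric genes. Without them, the nephric sum in control 3 was led by gata3, tbx2b and tbx2a (79.7, 73.2 and 64.7 CPM). These stood at 88.1%, 74.7% and 49.4% of the other controls. Irx3b and irx1a were higher in control 3 than in controls 1 and 2. Lhx1a, osr1, mecom and sim1a were at 5.11% to 13.3%, and the scarce wt1b and emx1 at 21.1% and 28.7%. Lateral plate markers, which are mostly hand2, were at 26.7%, immediate early genes at 72.2%, endodermal markers at 121% and somitic and presomitic markers, a further mesodermal list, at 159.8%.

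Neural and epidermal markers were also higher in control 3 than the mean of controls 1 and 2. The 4 early neural genes (sox2, sox3, sox19a and sox19b) summed to 107 and 153 CPM in controls 1 and 2, 1129 CPM in control 3, and 477, 93.7 and 125 CPM in atoh1b-MO 2, 4 and 5. The midbrain-hindbrain boundary genes without pax2a (4 genes) summed to 8.39 and 9.54 CPM, 100.2 CPM, and 38.1, 7.07 and 6.17 CPM in the same order. The 6 hindbrain genes summed to 285 and 319 CPM, 496 CPM, and 339, 248 and 264 CPM. Their median log2 ratio of control 3 to the mean of controls 1 and 2 was 0.91, and 1 gene was at least 5-fold above both. Against that median, hoxb3a, a gene of the posterior hindbrain, was lower in control 3, at 91.4 CPM against 131 and 108 CPM. Epidermal markers, mostly krt4 and krt5, summed to 1383 and 4880 CPM in controls 1 and 2, 7050 CPM in control 3, and 3309, 1427 and 1481 CPM in atoh1b-MO 2, 4 and 5. Controls 1 and 2 thus differed from each other in epidermal markers. Whether this bore on the levels of the 4 pronephros genes was not tested.

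**Figure D5:**
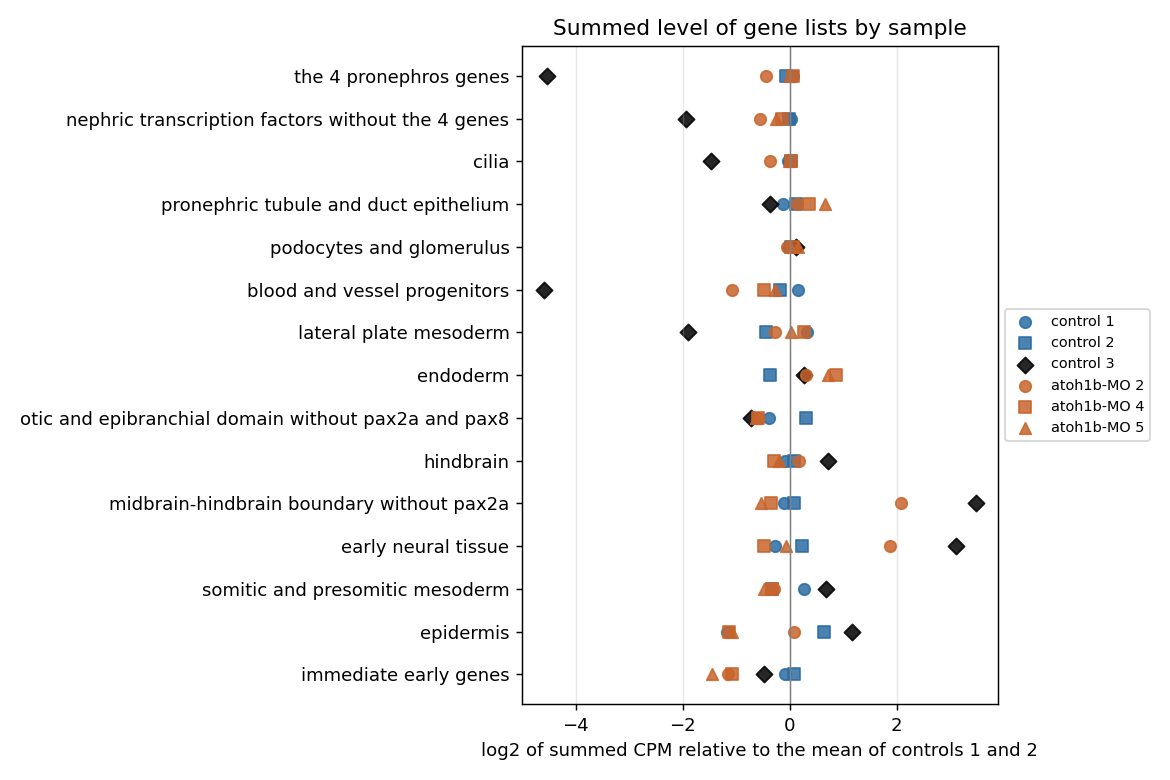
Summed level of each gene list per sample, as log2 of the CPM sum relative to the mean of controls 1 and 2. Points are single samples (blue controls 1 and 2, black diamonds control 3, orange atoh1b-MO). Control 3 lay far to the left for the 4 pronephros genes (55.5 CPM) and for blood and vessel progenitors (109 CPM) and far to the right for early neural tissue (1129 CPM), with atoh1b-MO 2 (orange circles) on the same side in each.

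Among these other lists the fit with controls 1 and 2 called 0 of 11 otic, 0 of 6 hindbrain, 0 of 5 boundary, 0 of 4 neural, 0 of 6 blood and vessel, 0 of 6 somitic, 0 of 4 lateral plate and 0 of 4 epidermal genes (edgeR). An unadjusted p below 0.05 was found for 5 otic, 1 hindbrain, 3 blood and vessel, 3 somitic and 2 lateral plate genes, and for 0 of the other 3 lists, beside 11.2% of all genes. DESeq2 called 2 otic, 2 blood and vessel, 1 somitic and 1 lateral plate gene, and limma voom 0 in all 8 lists, beside 3.79% and 0.457% of all genes. Of 5 endodermal genes tested, edgeR called foxa3 higher, a forkhead factor of the gut, another tissue in which hnf1ba and hnf1bb act. Foxa3 was at 4.72 and 5.48 CPM in controls 1 and 2, 14.9 CPM in control 3, and 11.2, 19.8 and 17.9 CPM in atoh1b-MO 2, 4 and 5, with a log2 fold change of 1.68 (edgeR, adjusted p = 0.0696). The endodermal factors sox17 and sox32 were at or below 3.92 CPM in every sample. Of 6 immediate early genes, which respond within minutes to stress and growth signals, egr1, junba and junbb were called lower in atoh1b-MO samples. With 6 samples edgeR called 0 genes of these 10 lists, where 4 immediate early genes, 1 blood and vessel, 1 somitic and 2 lateral plate genes had an unadjusted p below 0.05 (5.82% of all genes). DESeq2 called 4 immediate early genes and 1 blood and vessel gene (0.578% of all genes), and limma voom 2 immediate early genes (0.117%).

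The genes whose profile over the 6 samples was most like that of the 4 pronephros genes were found by the root mean square difference of log2 CPM after centring each gene on its mean. Among 8875 named genes with a mean of at least 10 CPM, the median difference from the mean profile of the 4 genes was 1.45, and 32 genes lay within 0.25. The closest were dpp4 (0.101), KLF3 (0.143), nrp1b (0.144), drll.3 (0.144) and zgc:154055 (0.152), with symbols as the reference table gives them. Nrp1b, a co-receptor for semaphorins and Vegf, was at 327 and 297 CPM in controls 1 and 2, 15.5 CPM in control 3, and 187, 304 and 328 CPM in atoh1b-MO 2, 4 and 5.

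The closest genes to hnf1ba alone were FOXJ1 (0.0939, the row used as foxj1a above), GADD45A (0.145) and bif1.2 (0.148). Those to hnf1bb were a clone-named gene on chromosome 7 (0.131), drll.2 (0.153) and baiap2l2a (0.185). For cdh17 they were NDRG1 (0.129), drll.3 (0.187) and clec14a (0.198), and for wt1a KLHL14 (0.150), CDH11 (0.196) and tgfb1a (0.217). Differences among the 4 pronephros genes themselves were larger, but the genes above were picked as the closest of 8875, which keeps their differences small. The median difference over those 8875 genes was 1.03 from wt1a, 1.29 from hnf1ba, 1.57 from cdh17 and 1.98 from hnf1bb. Hnf1ba and cdh17 were closest to each other (0.379), and hnf1bb and wt1a farthest apart (1.08). The farthest sample from the mean of each of the 4 genes was control 3, at -2.10 (wt1a) to -4.43 (hnf1bb) on the log2 scale, so it weighed most in these differences.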

How the data were processed

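DsRed-positive cells were sorted and poly(A) RNA was sequenced as single reads. The authors aligned the reads with GSNAP and deposited whole-number counts from featureCounts, not normalized, for each Ensembl gene, keeping unique alignments. The labels and the study's methods describe different library preparations. The submitters' notes name GRCz10 and featureCounts 1.5.3, the study's methods GRCz11. Genes on chromosomes 12, 22 and 24 end at 49212351, 39186832 and 42236180, past the ends of these chromosomes in GRCz11, so positions were read as GRCz10. Whether counting used strand is not given in the sources used here. Unique alignment lowers counts where paralogs are near-identical. The 92 spike-in rows held 0 counts.

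Levels are CPM with TMM scaling over 6 samples, and TPM uses the deposited gene length. Fits used edgeR (version 4.0.16) in R (4.3.3) with filterByExpr, TMM, the quasi-likelihood test and Benjamini-Hochberg adjustment over all genes tested, called at an adjusted p below 0.1. Standard errors are the absolute log2 fold change over the square root of F. The clutch term of the study's model is not in the labels. Fits were tested on simulated data. Alternatives were DESeq2 (1.42.0), limma voom (3.58.1), other scalings, filters and thresholds and leaving out each replicate. Members and lists were chosen with earlier results of these data known.

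Listed symbols were matched to 97 of 102 identifiers by symbol, or, for paralogs sharing one, by the chromosome in RefSeq (GRCz12tu). The naming rule took the 4 genes, listed genes that were called, the 3 most abundant of each list and the closest profiles; values are given for those that bear on the 4 genes. One listed gene is not reported here. Wilson intervals and floors cover counting error only. No pair of samples agreed within sampling noise (chi-square per degree of freedom 11.7 or more). The labels name no cultures or clutches, so p-values measure the spread between these samples.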

Additional observations from a re-analysis of the deposited data

How the results depend on the processing

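Under other scalings, no count filter, DESeq2 or without the 10 most counted genes, 40 log2 fold changes of the 4 pronephros genes were compared. All 40 moved from the main fit by less than 1 pooled SD between replicates. With 6 samples that SD was 1.21 to 2.22 on the log2 scale, so only a large move could exceed it. Limma voom and the filter of 10 counts were not in this number. With 6 samples limma voom gave 0.15 for hnf1ba, 0.36 for hnf1bb, 0.63 for cdh17 and 0.035 for wt1a. With controls 1 and 2, leaving out each replicate gave -0.29 to -0.061 for hnf1ba, -0.24 to -0.0024 for hnf1bb, 0.076 to 0.52 for cdh17 and -0.45 to 0.18 for wt1a. With 6 samples it gave -0.19 to 0.78, -0.13 to 0.91, 0.31 to 1.28 and -0.13 to 0.70, the lowest value of each being that without control 3. In control 3 the level relative to controls 1 and 2 ranged over the scalings and TPM from 7.41% to 8.32% for hnf1ba, 2.10% to 2.36% for hnf1bb, 5.45% to 6.14% for cdh17 and 13.9% to 15.6% for wt1a. With controls 1 and 2, 110 genes were called, 488 when low counts were kept, 690 with DESeq2, 71 at an adjusted p below 0.05, and 13 to 260 with a replicate left out, the 13 without control 1 and the 260 without atoh1b-MO 2. With 6 samples the number was 0, 112 with DESeq2, 21 with limma voom, and 0 to 110 with a replicate left out, the 110 without control 3. The cause of these changes in number was not tested. No paired analysis was possible because the groups share 1 replicate number only. The comparisons rest on 2 or 3 samples a group, and each of the 4 genes had at least 141 counts in every sample.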
